A study of Bos taurus with 4 samples.

Results

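The genes described here encode the machinery that transcribes the genome: the subunits of RNA polymerases I, II and III, the TATA-binding protein (TBP) with its associated factors (TAFs), the general transcription factors, Mediator, and the SPT, NELF, ELL and TFIIS families of elongation factors. They were chosen by symbol alone, as every row of the deposited table whose bovine symbol starts with POLR1, POLR2, POLR3, GTF2, GTF3, SUPT, NELF, ELL or TCEA, starts with TAF or MED followed by a digit, or is TBP, TBPL1 or TBPL2. This gave 119 transcripts of 115 genes, of 14517 transcripts in all. POLR2K had several rows, as had POLR1D and MED13L, and the other genes had 1 row each. A further 18 genes whose symbols meet the rule, among them TAF1, TAF4, TBPL2, MED13, NELFB and NELFCD, were not analysed here. Symbols were taken as a family name only: TAF1A to TAF1D belong to the SL1 complex of Pol I, TAF6L and several SUPT genes to the SAGA coactivator, GTF2I and its relatives to a family of DNA-binding factors, and the TCEAL genes resemble TFIIS in name and sequence rather than in a known elongation role.

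The libraries were polyadenylated RNA of bovine (Bos taurus) embryos of 8 to 16 cells, taken on day 3 after insemination. Zygotes had been injected with negative control siRNAs (NC, 2 libraries) or, per the titles, with siRNAs against the KDM5 genes (KDM5_KD, 2 libraries), which encode demethylases of lysine 4 on histone H3. The treatment entry of KDM5_KD replicate 1 names KDM5A, KDM5B and KDM5C, while that of KDM5_KD replicate 2 names KDM6A, KDM6B and KDM6C in place of them, against its title. Results are therefore also given without that library. Nothing in the labels says how many embryos a library held or whether the libraries came from separate batches of zygotes, so p-values measure only the spread between these libraries, which may be technical.

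Transcription by all 3 nuclear polymerases starts from a preassembled complex. TBP, in TFIID for Pol II, in SL1 for Pol I and in TFIIIB for Pol III, marks the promoter, general factors load the polymerase, and Mediator links it to activators. After initiation Pol II is held near the promoter by NELF and DSIF and then released into elongation. In bovine embryos the major activation of the embryonic genome takes place around the stage sampled here, and much of the machinery before it is supplied by the oocyte.

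KDM5A, the first siRNA target, fell from 28.4 and 27.1 FPKM in the NC libraries to 10.5 and 10.1 FPKM in the KDM5_KD libraries (limma adjusted p of 0.0333). KDM5C was at 28.1 and 40.6 FPKM against 15.1 and 17.8 FPKM, with a limma adjusted p of 0.123. KDM6A overlapped between the groups, at 7.63 and 11.3 against 7.90 and 9.29 FPKM, and KDM5B was not analysed here. KDM5_KD replicate 2 was thus as low in KDM5A as replicate 1. FPKM summed to between 279259 and 290051 per library without microRNA rows, and the number of reads behind them is unknown. Of 14 rows of an embryo and oocyte list, 5 did not overlap upward in KDM5_KD, among them LIN28A and BMP15, and 2 downward, SOX2 and KLF4. Among all transcripts tested, 35.1% did not overlap upward and 15.6% downward. The list's summed level was 994 to 1224 FPKM in NC and 1115 to 1183 FPKM in KDM5_KD. Of 20 cumulus and granulosa cell genes, 15 were higher in both KDM5_KD libraries than in both NC libraries, and their summed level was 62.9 to 83.5 FPKM in NC and 133 to 160 FPKM in KDM5_KD. Among the 20, FSHR and CYP19A1 were below 0.1 FPKM in every library, and AMH overlapped at 2.77 and 1.12 against 1.28 and 0.957 FPKM. COL1A1, SERPINE2 and LUM were highest in KDM5_KD, at 35.8 to 47.7, 24.4 to 29.9 and 15.6 to 23.8 FPKM. CYP11A1 was at 12.5 to 17.2 FPKM there. Whether such cells were present, and any part they had in the results below, was not tested. In whole-embryo RNA fewer cells of a type and less RNA per cell cannot be told apart.

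No member was called different between the groups, but calls were so rare among all transcripts that this says little about the members. Of the 119 transcripts, 114 had a mean of at least 1 FPKM over all libraries and were tested on log2(FPKM + 1), and none passed a limma adjusted p of 0.05, against 0.279% of the 8970 transcripts tested in all (0.19% higher and 0.0892% lower). The lowest adjusted p among them was 0.157, for NELFA. Without KDM5_KD replicate 2 none passed either, with a lowest limma adjusted p of 0.434. Without adjustment, limma gave a p under 0.05 for 4 members with higher and 3 with lower values in KDM5_KD, where the shares of all transcripts were 14.3% and 3.12%. The 95% limma interval lay within a log2 change of 1, that is 2-fold, either way for 107 of the 114, and within 0.5 for 51. A difference smaller than these intervals was not detectable with 2 libraries per group, and some larger ones did not pass either. The intervals are not adjusted for the number of transcripts tested, and that of NELFA was -1.03 to -0.24.

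The members' median log2 fold change was -0.03, beside 0.09 for all transcripts tested. Both KDM5_KD libraries lay above both NC libraries for 20 members (17.5%) and below them for 19 (16.7%), while the remaining 75 overlapped. The shares of all transcripts were 35.1% above and 15.6% below. These counts depended on the scaling of the libraries. Under median-ratio scaling 8 of the 114 members lay above and 44 below, beside 25.9% and 25.4% of all transcripts. Under quantile normalization 11 lay above and 32 below, beside 20.7% and 28.3% of all transcripts. With the first scaling the median log2 fold change over every tested transcript shifted by -0.10, and with the second by -0.14. A shift of that size is a large part of the smaller differences named below. Without KDM5_KD replicate 2, when only 3 libraries have to be separated, 35 lay above and 39 below, against 45.0% and 25.9% of all transcripts. On all 3 scales 7 members lay above and 18 below, against 18.5% and 15.2% of all transcripts. By complex, those on all 3 scales were 1 above and 1 below for Pol I and 1 above and none below for Pol II. There were none for Pol III and GTF3, 1 below for SL1 and 1 above for TFIID. Mediator had 1 above and 5 below of 27 tested, and GTF2 none above and 5 below of 15. The elongation and SPT/SAGA factors had 3 above and 6 below of 19. The counts by complex that follow are on the deposited FPKM scale. A log2 fold change of at least 0.5 was seen for 3 members upward and 2 downward, against 16.4% and 2.2% of all transcripts.

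**Figure D1:**
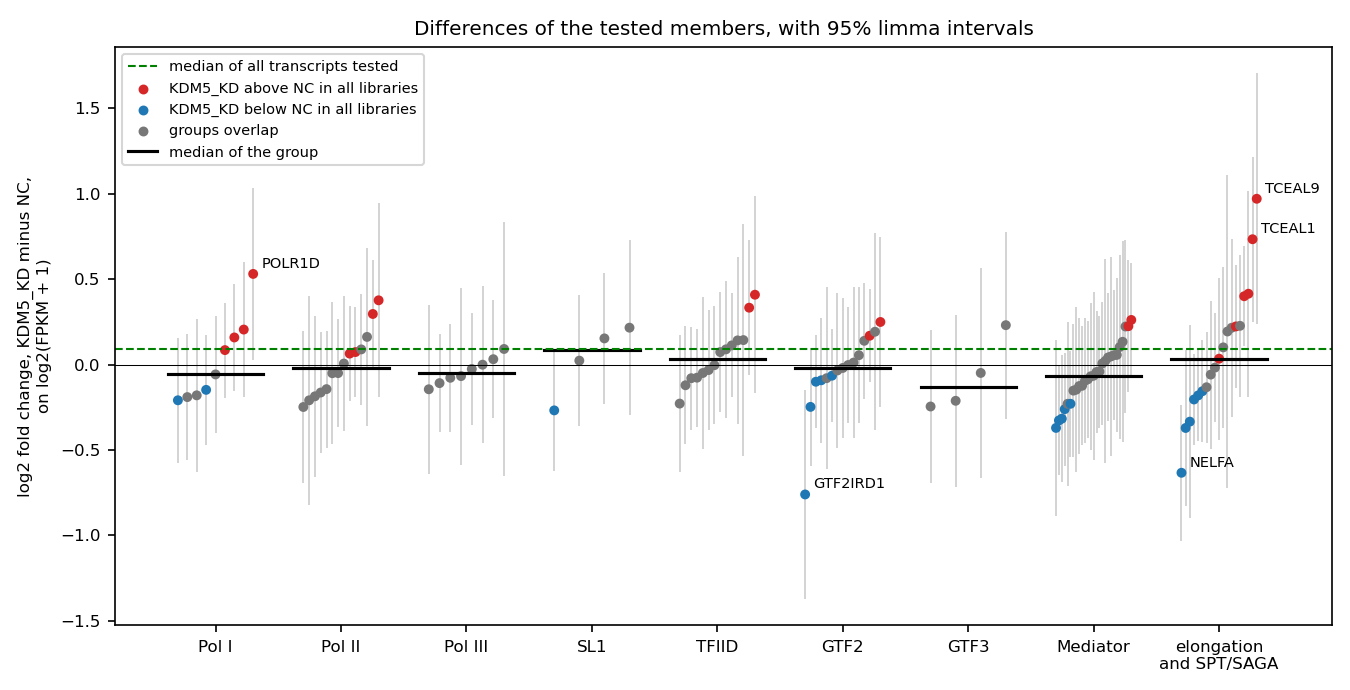
Log2 fold change of each tested member (points, KDM5_KD minus NC on log2(FPKM + 1)) with its 95% limma interval (grey), by complex. The group medians (black bars) lie between -0.13 and 0.09, the dashed line is the median of all transcripts tested, and the 5 labelled members are those with groups that do not overlap and a log2 fold change of at least 0.5 in size.

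Members were more abundant than most transcripts, with a median of the mean levels of 25.3 FPKM against 10.5 FPKM for all tested, so they were also set against transcripts of like abundance. Among 4 equal level classes of all tested transcripts, 49 members were in the highest class and 44 in the next. In the highest class 16.3% of members lay above NC in both KDM5_KD libraries and 24.5% lay below, beside 21.0% and 24.5% of all transcripts there. In the next class the shares were 13.6% and 11.4% of members, beside 30.8% and 17.6% of all transcripts. Only 8 members were in the lowest class, and 5 of them lay above (62.5%) and 1 below (12.5%), beside 48.0% and 9.01% of all transcripts there. Of the 13 members in the class next to the lowest, 7.69% lay above and 7.69% below, beside 40.6% and 11.4% of all transcripts.

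**Figure D2:**
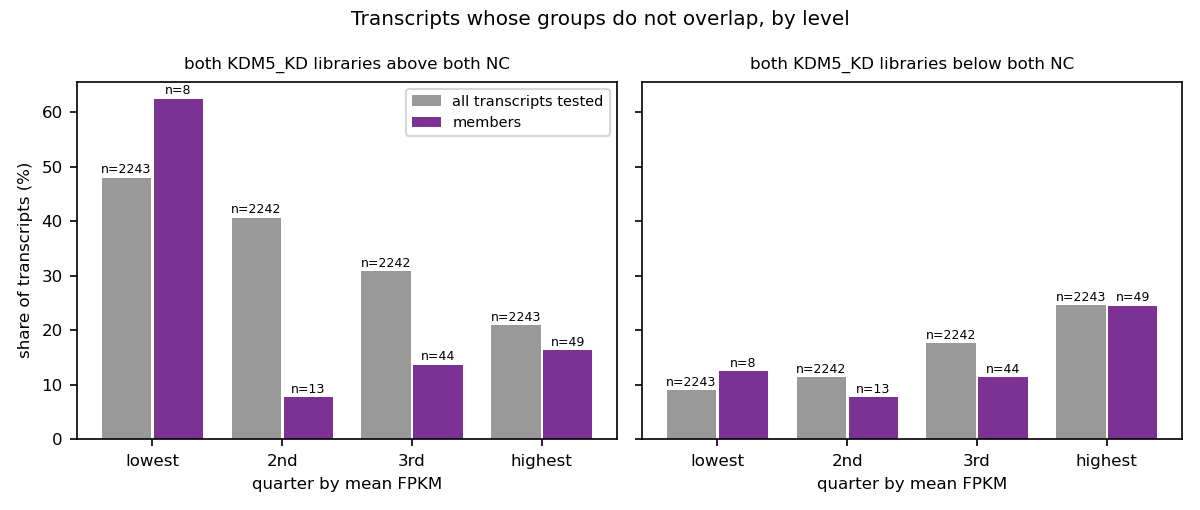
Share of transcripts, in percent, whose KDM5_KD libraries both lie above (left) or below (right) both NC libraries, for all transcripts tested (grey) and for members (purple), in 4 groups by mean FPKM. In the 2 highest groups, which hold 44 and 49 of the 114 tested members, the upward share of members is below that of all transcripts.

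The median size of the difference between the NC replicates was 0.20 on the log2(FPKM + 1) scale and that between the KDM5_KD replicates was 0.17. The median size of the difference between the group means, each of 2 libraries and so less variable than single ones, was 0.14. The same medians over all transcripts were 0.22, 0.18 and 0.21. NC replicate 1 was nearer than NC replicate 2 to the KDM5_KD mean for 58 of the 114 members. Members made up 1.71% and 1.78% of the FPKM sum without microRNA rows in NC, and 1.68% of it in each KDM5_KD library.

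RNA polymerase I makes the large ribosomal RNA precursor, and 9 transcripts of 8 of its genes were tested. POLR1A, which encodes its largest subunit, was at 25.3 and 24.2 FPKM in NC and 22.3 and 22.2 FPKM in KDM5_KD. Both KDM5_KD values lay below NC, by a small margin (log2 fold change -0.15 with an SE of 0.13, adjusted p = 0.612 by limma). POLR1B, the second largest subunit, was the least abundant row, at 14.3 and 13.6 against 13.9 and 10.6 FPKM, and its groups overlapped. POLR1C, an assembly subunit also used by Pol III, was at 106 and 137 FPKM in NC and 103 and 105 FPKM in KDM5_KD. Its groups were separated only narrowly, with NC replicate 2 high and the other 3 libraries alike (log2 fold change -0.21 with an SE of 0.15, adjusted p = 0.524 by limma). Without NC replicate 2 the difference was -0.026. POLR1F overlapped at 34.1 and 40.3 against 34.8 and 30.1 FPKM.

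The largest difference in this complex was in 1 of the 2 rows of POLR1D, the other assembly subunit shared with Pol III. That row (NM_001046587) was at 23.6 and 20.8 FPKM in NC and 26.8 and 39.4 FPKM in KDM5_KD (log2 fold change 0.53 with an SE of 0.21, adjusted p = 0.271 by limma). The more abundant row (NM_001076144) was at 146 and 126 against 142 and 120 FPKM, with overlapping groups. With both rows summed the log2 fold change was 0.05, and reads may be divided between the 2 rows. Without KDM5_KD replicate 2 the difference of NM_001046587 was 0.26. POLR1E, POLR1G and POLR1H lay above NC in both KDM5_KD libraries by 0.08 to 0.20. POLR1H differed by 0.046 without KDM5_KD replicate 1, POLR1G by 0.076 without KDM5_KD replicate 2, and POLR1E had the opposite sign (-0.03) under median-ratio scaling.

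SL1, which brings TBP to the ribosomal RNA promoter, had all 4 of its TAF1A to TAF1D genes tested. TAF1C lay lower in KDM5_KD, at 38.9 and 42.2 FPKM against 54.1 and 44.4 FPKM (log2 fold change -0.27 with an SE of 0.15, adjusted p = 0.400 by limma), a value that became -0.13 without NC replicate 1. The other 3 overlapped, with log2 fold changes between 0.02 and 0.22.

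RNA polymerase II, which makes messenger RNA, was the most abundant of the polymerases here. Its 15 rows came from 13 genes, and 14 rows were tested. POLR2A, the largest and catalytic subunit, was at 105 and 130 FPKM in NC and 103 and 109 FPKM in KDM5_KD. POLR2B, the second largest, was at 69.5 and 77.9 against 75.6 and 66.7 FPKM. Both overlapped between groups, with 95% limma intervals for the log2 fold change of -0.49 to 0.20 and -0.37 to 0.27.

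The rows of this complex spanned a wide range of levels per unit length although its subunits assemble in equal numbers. POLR2F was highest at a mean of 281 FPKM over the 4 libraries, followed by POLR2J at 219 and POLR2E at 144 FPKM. POLR2H was at 9.70 FPKM, and the 3 rows of POLR2K were at 20.1, 5.68 and 0.680 FPKM, the last of them not tested. POLR2E, POLR2F, POLR2H, POLR2K and POLR2L are used by all 3 polymerases, and of their 6 tested rows only POLR2H did not overlap. It was at 6.60 and 10.2 FPKM in NC and 11.6 and 10.4 FPKM in KDM5_KD (log2 fold change 0.38 with an SE of 0.23, adjusted p = 0.458 by limma) but not on all 3 scales, and the difference was 0.09 without NC replicate 1. POLR2L overlapped at 61.1 and 70.5 against 74.5 and 58.3 FPKM. POLR2J, a core subunit, was at 196 and 196 against 220 and 264 FPKM (log2 fold change 0.30 with an SE of 0.13, adjusted p = 0.313 by limma), and the difference was 0.16 without KDM5_KD replicate 2. POLR2D and POLR2I lay above NC by 0.07 and 0.06 and below it, at -0.04 and -0.05, under median-ratio scaling. POLR2M, which encodes a factor bound to Pol II rather than a core subunit, overlapped. Of the 14 tested Pol II rows, 4 lay above NC in both KDM5_KD libraries (28.6%) and none below, beside 35.1% and 15.6% of all transcripts.

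**Figure D3:**
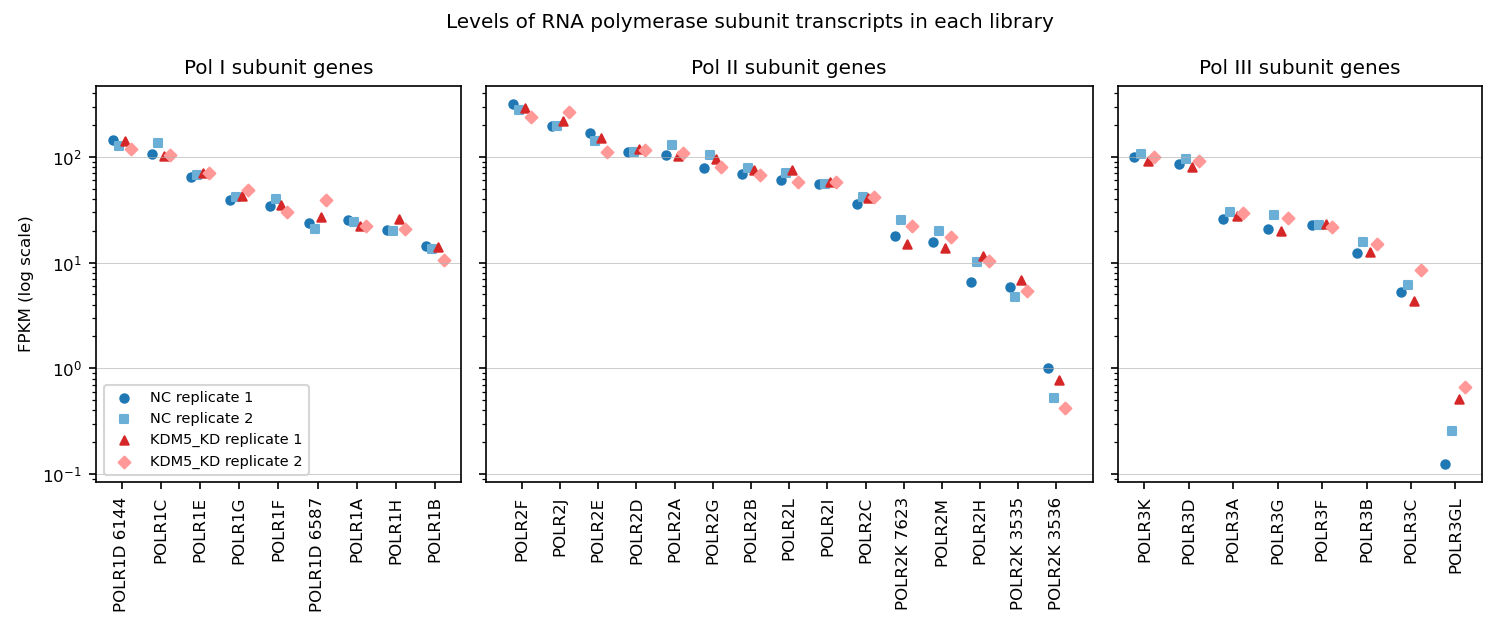
FPKM of Pol I, Pol II and Pol III subunit rows (all but 1) in the 4 libraries, on a log axis, in order of mean level; rows of genes with several accessions carry the last digits of the accession. Levels span from 281 FPKM for POLR2F to under 1 FPKM for POLR3GL, and the 4 points of a row lie close together relative to that span.

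RNA polymerase III makes transfer RNA and 5S ribosomal RNA. All 8 tested transcripts of its genes overlapped between the groups, where 35.1% of all transcripts lay above NC and 15.6% below. The log2 fold change of POLR3C was 0.09, or -0.33 without KDM5_KD replicate 2. POLR3A, the largest subunit, was at 26.0 and 30.0 FPKM in NC and 27.6 and 29.6 FPKM in KDM5_KD. POLR3K, a small subunit, was the most abundant at a mean of 99.4 FPKM. POLR3B was at 12.2 and 15.6 against 12.6 and 15.1 FPKM. The alternative subunits POLR3G and POLR3GL differed widely in level. POLR3G, the form typical of early embryos and stem cells, was at 20.7, 28.4, 20.1 and 26.5 FPKM in NC replicates 1 and 2 and KDM5_KD replicates 1 and 2. POLR3GL, the form of most adult tissues, was at 0.124, 0.255, 0.512 and 0.671 FPKM and was not tested. Of its promoter factors, GTF3A, the 5S gene factor TFIIIA, was at 6.46 and 4.38 against 6.33 and 6.54 FPKM, and the TFIIIC genes GTF3C1, GTF3C4 and GTF3C5 overlapped likewise.

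The TFIID set, in which TBPL1 was placed by its symbol alone, held TBP, TBPL1 and 12 TAF transcripts, all tested. TBP was at 23.7 and 30.8 FPKM in NC against 34.5 and 34.1 FPKM in KDM5_KD (log2 fold change 0.33 with an SE of 0.16, adjusted p = 0.355 by limma). The KDM5_KD libraries were close to each other and above both NC libraries, of which NC replicate 1 was the lower. Without NC replicate 1 the difference was 0.15. TBPL1, a TBP relative that does not bind the TATA box, was the most abundant of the set, at 93.1 and 81.2 against 91.1 and 97.1 FPKM, and overlapped.

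Of the 12 TAF transcripts, 11 overlapped, where 35.1% of all transcripts lay above NC and 15.6% below. TAF4B, the gonad and oocyte form of TAF4, was at 35.6 and 28.8 FPKM in NC and 35.0 and 27.3 FPKM in KDM5_KD. TAF5, a scaffold of the complex, was at 66.2 and 63.4 against 59.0 and 63.8 FPKM. TAF10, shared with SAGA, was at 56.6 and 49.2 against 51.2 and 60.3 FPKM. TAF11 and TAF7 had the lowest log2 fold changes of the set, -0.12 and -0.23, and overlapped. TAF11 differed by 0.029 without NC replicate 2 and TAF7 by -0.091 without KDM5_KD replicate 2. TAF9 was at 47.7 and 48.6 against 43.2 and 47.9 FPKM. Its close paralog TAF9B was far lower, at 1.16 and 0.864 against 1.31 and 2.06 FPKM, and lay above NC in KDM5_KD (log2 fold change 0.41 with an SE of 0.24, adjusted p = 0.426 by limma). Its log2 fold change was 0.07 under quantile normalization and 0.21 without KDM5_KD replicate 2.

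Among the GTF2 genes, 15 of 16 transcripts were tested. In KDM5_KD 2 lay above NC (13.3%, beside 35.1% of all transcripts) and 5 below (33.3%, beside 15.6%), and 8 overlapped. GTF2B, which encodes TFIIB, the bridge between TBP and Pol II, was at 74.5 and 90.6 FPKM in NC and 65.7 and 72.6 FPKM in KDM5_KD (log2 fold change -0.25 with an SE of 0.14, adjusted p = 0.423 by limma), and it differed by -0.11 without NC replicate 2 and by -0.39 without NC replicate 1. For TFIIA, GTF2A1 overlapped at 13.4 and 15.0 against 13.7 and 15.9 FPKM, as did its germ cell paralog GTF2A1L at 8.02 and 8.12 against 7.45 and 11.7 FPKM. The small subunit GTF2A2 lay lower by only 0.07, at 68.3 and 69.1 against 65.4 and 65.8 FPKM. In TFIIE, GTF2E2 was the most abundant GTF2 gene at a mean of 93.1 FPKM and overlapped. In TFIIF, GTF2F1 lay lower by 0.10 and GTF2F2 higher by 0.25, the latter through KDM5_KD replicate 2 (15.1 FPKM, against 10.5 to 10.7 FPKM in the other 3), without which it was 0.019.

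TFIIH opens promoter DNA and phosphorylates Pol II. Of its 7 core genes, which include the helicase genes ERCC2 and ERCC3 beside GTF2H1 to GTF2H5, GTF2H1 lay above NC by 0.17 and GTF2H4 and ERCC2 lay below by 0.09 and 0.25, while 4 overlapped. Of its kinase module, CDK7 lay above NC by 0.24, and CCNH and MNAT1 overlapped. Among all transcripts tested, 35.1% lay above NC and 15.6% below.

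The largest difference in the GTF2 family was outside the general factors, in GTF2IRD1, a relative of the DNA-binding factor GTF2I. It was at 8.28 and 6.29 FPKM in NC and 3.10 and 4.75 FPKM in KDM5_KD (log2 fold change -0.76 with an SE of 0.25, adjusted p = 0.212 by limma). Both KDM5_KD libraries were below both NC libraries on all 3 scales. GTF2I itself overlapped at 10.02 and 13.11 against 10.97 and 11.38 FPKM. GTF2IRD2 was at 0.362 and 0.297 FPKM in NC and 0.984 and 0.886 FPKM in KDM5_KD, too low to be tested, and related copies of these genes may share reads.

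Mediator was represented by 27 transcripts of 26 genes, all tested, with a median log2 fold change of -0.07. In KDM5_KD 5 lay below NC (18.5%, beside 15.6% of all transcripts) and 2 above (7.41%, beside 35.1%), and 20 overlapped. Every 95% limma interval in this complex lay within 2-fold either way. Levels ran from 3.09 FPKM for MED23 to 192 FPKM for MED10, a middle-module gene.

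Members lower in both KDM5_KD libraries came from several modules. MED9, of the middle module, was at 54.2 and 61.0 FPKM in NC and 48.1 and 43.3 FPKM in KDM5_KD (log2 fold change -0.33 with an SE of 0.13, adjusted p = 0.281 by limma). MED21, of the same module, was at 29.8 and 32.2 against 24.4 and 27.0 FPKM, and MED22, of the head, at 16.3 and 15.3 against 11.9 and 13.0 FPKM. MED21 differed by -0.26 and MED22 by -0.32 on the log2 scale, with adjusted p = 0.382 and 0.349 by limma. MED29 was at 41.0 and 42.9 against 39.9 and 26.0 FPKM, so its log2 fold change of -0.37 (limma adjusted p of 0.420) was -0.07 without KDM5_KD replicate 2. The last was 1 of the 2 rows of MED13L, a kinase-module gene, where NM_001192468 was at 33.7 and 31.5 against 27.4 and 27.8 FPKM and NM_001369918 overlapped.

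MED26, which couples Mediator to elongation factors, lay higher in KDM5_KD, at 30.9 and 29.1 FPKM against 26.3 and 23.5 FPKM (log2 fold change 0.26 with an SE of 0.14, adjusted p = 0.385 by limma). MED28 lay higher by 0.22, which was 0.090 without NC replicate 1 and 0.12 under median-ratio scaling. The central subunits overlapped: MED14, the backbone, was at 13.8 and 20.8 against 14.8 and 19.9 FPKM, MED17 at 15.7 and 16.6 against 16.9 and 15.7 FPKM, and MED1, which binds nuclear receptors, at 24.6 and 25.6 against 23.4 and 25.3 FPKM. MED12 of the kinase module was at 17.6 and 25.0 against 18.7 and 21.4 FPKM, and its paralog MED12L at 9.95 and 13.2 against 9.03 and 10.3 FPKM. MED14 and MED12 differed more between the NC replicates than between the groups.

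**Figure D4:**
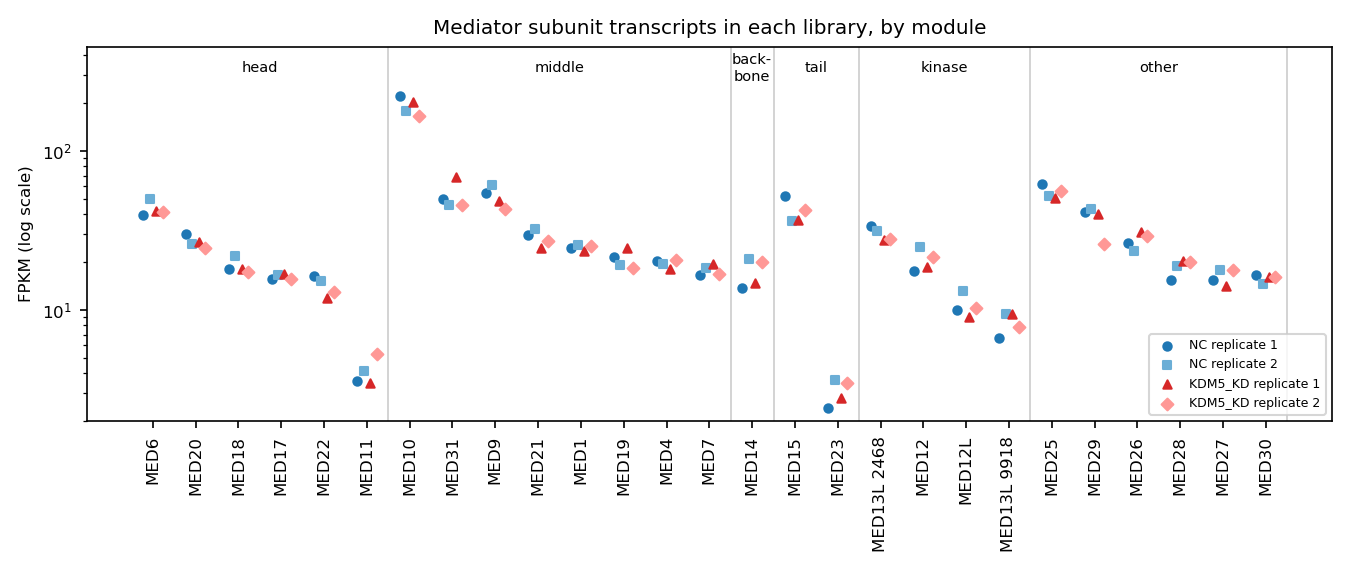
FPKM of each Mediator row in the 4 libraries, on a log axis, by module and in order of mean level within it; the last panel holds genes not placed in a module here, and rows of MED13L carry the last digits of the accession. MED10 is highest at 192 FPKM and MED23 lowest at 3.09 FPKM, and for 20 of the 27 rows the blue (NC) and red (KDM5_KD) points overlap.

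Of the elongation and SPT/SAGA factors, 19 of 21 transcripts were tested, and 6 lay above NC, 6 below and 7 overlapped (31.6% each way, beside 35.1% above and 15.6% below of all transcripts). The median size of difference in this set was 0.22, as in the TFIIIA and TFIIIC genes, beside 0.21 for all transcripts tested. Every other set had a smaller one. Several members of this set, among them TCEAL1, TCEAL9 and ELL3, were in the lowest level class, where it was 0.31 for all transcripts. DSIF is a dimer of SPT4 and SPT5, and its genes lay on opposite sides. SUPT4H1 was at 177 and 203 FPKM in NC and 246 and 255 FPKM in KDM5_KD (log2 fold change 0.40 with an SE of 0.12, adjusted p = 0.192 by limma). SUPT5H was at 81.0 and 83.1 against 71.8 and 72.7 FPKM (log2 fold change -0.18 with an SE of 0.11, adjusted p = 0.454 by limma). Within a library the ratio of SUPT4H1 to SUPT5H does not depend on a factor that scales the whole library, and it was 2.18 and 2.44 in NC and 3.43 and 3.51 in KDM5_KD.

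SUPT6H, which encodes the histone chaperone SPT6 that travels with Pol II, resembled SUPT5H, at 108 and 109 FPKM in NC and 92.1 and 95.9 FPKM in KDM5_KD (log2 fold change -0.20 with an SE of 0.11, adjusted p = 0.393 by limma). SUPT16H, a subunit of the FACT histone chaperone, overlapped at 13.2 and 18.4 against 17.0 and 16.5 FPKM. The NELF genes analysed, which encode subunits of the complex that pauses Pol II, both lay lower in KDM5_KD. NELFA was at 48.0 and 37.1 FPKM in NC and 27.8 and 25.9 FPKM in KDM5_KD (log2 fold change -0.63 with an SE of 0.16, adjusted p = 0.157 by limma). NELFE was at 47.8 and 52.1 against 44.0 and 45.4 FPKM (log2 fold change -0.16 with an SE of 0.12, adjusted p = 0.561 by limma), a value that became -0.096 without NC replicate 2. The difference of NELFA was -0.45 without NC replicate 1, and its adjusted p was between 0.119 and 0.579 over the alternatives.

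**Figure D5:**
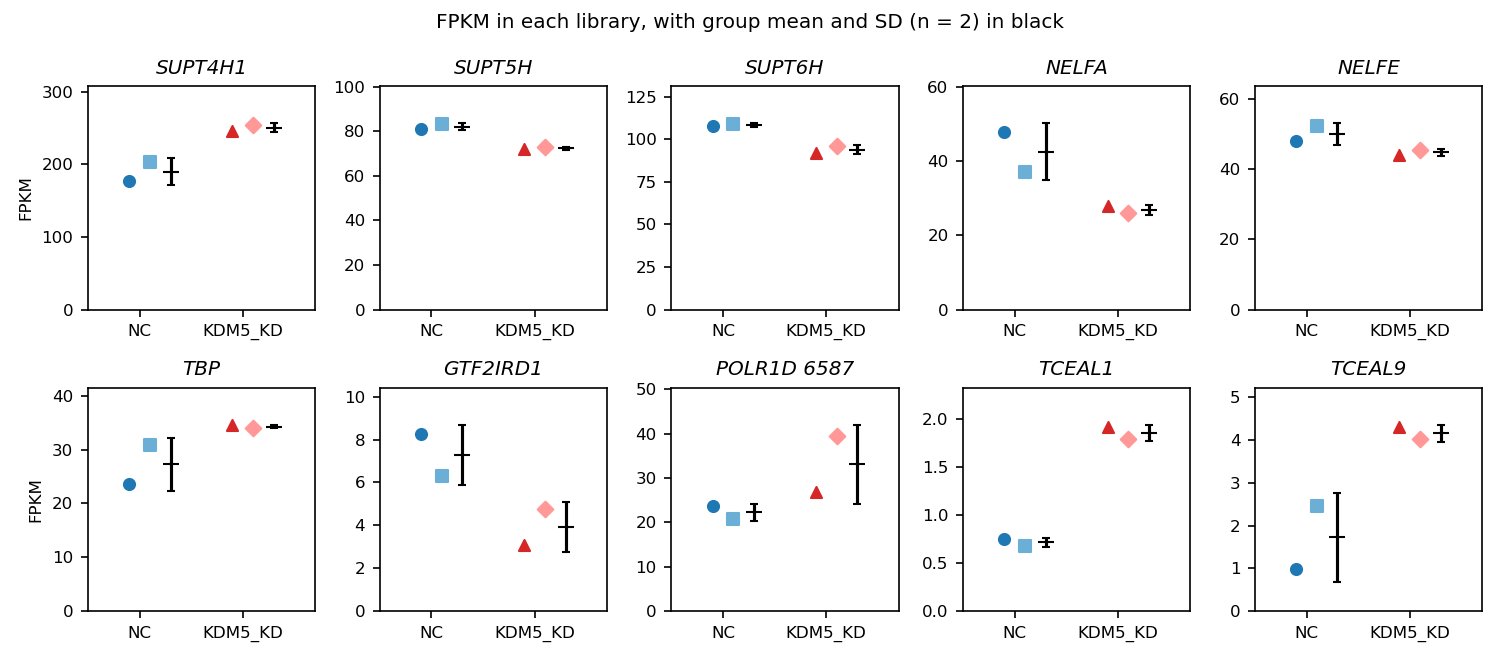
FPKM of 10 members in NC (blue circle and square, replicates 1 and 2) and KDM5_KD (red triangle and diamond), with the group mean and SD (n = 2) in black; each panel has its own axis from 0, and POLR1D shows the row NM_001046587. In each panel the 2 groups do not overlap, and none of the 10 passed a limma adjusted p of 0.05.

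ELL proteins stimulate elongation as part of the super elongation complex. ELL2 was the most abundant, at 105 and 117 FPKM in NC and 109 and 93.2 FPKM in KDM5_KD. ELL was at 18.4 and 15.9 against 16.5 and 24.2 FPKM. Both overlapped. ELL3 was at 1.45 and 2.25 against 3.23 and 2.35 FPKM (log2 fold change 0.41 with an SE of 0.25, adjusted p = 0.442 by limma), with a difference of 0.21 without NC replicate 1 and 0.14 under quantile normalization. For TFIIS, which rescues arrested Pol II, TCEA1 was at 29.2 and 30.7 against 28.3 and 30.8 FPKM. TCEA2 and TCEA3 were below 1.2 FPKM in every library and were not tested.

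The largest upward differences among all members, with all 4 libraries, were in TCEAL genes of low level. TCEAL9 was at 0.995 and 2.47 FPKM in NC and 4.30 and 4.02 FPKM in KDM5_KD (log2 fold change 0.97 with an SE of 0.30, adjusted p = 0.198 by limma), and the difference was 0.57 without NC replicate 1. TCEAL1 was at 0.747 and 0.679 against 1.91 and 1.79 FPKM (log2 fold change 0.73 with an SE of 0.20, adjusted p = 0.165 by limma), and its difference was 0.43 under quantile normalization. Both lay above NC in both KDM5_KD libraries, as did 48.0% of all transcripts in their level class, the lowest. So did 15 of the 20 cumulus and granulosa cell genes. The summed level of all 20 was 62.9 to 83.5 FPKM in NC and 133 to 160 FPKM in KDM5_KD. Any part of such cells in these differences was not tested. TCEAL8, the abundant relative, overlapped at 24.8 and 26.8 against 26.4 and 34.8 FPKM. The SAGA genes were mixed, with SUPT20H above NC by 0.22 and TAF6L below by 0.37, and SUPT3H overlapping. TAF6L differed by -0.15 without NC replicate 1, and SUPT20H by 0.11 without KDM5_KD replicate 2. TCEANC, named for its likeness to TFIIS, was at 2.58 and 3.86 against 2.24 and 2.38 FPKM, and its difference of -0.33 was -0.11 without NC replicate 2. SUPT7L lay above by 0.03 and below, at -0.05 and -0.26, under median-ratio scaling and quantile normalization.

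A wider list of 54 genes that work with these complexes, such as the kinases and cyclins of TFIIH, Mediator and P-TEFb, the PAF1 complex, the TFIIIB and SNAPC genes and the RPAP assembly factors, had 44 genes with a row, and all 44 were tested. None passed in either direction, where only 0.19% of all transcripts passed with higher and 0.0892% with lower values. Limma gave an unadjusted p under 0.05 for 1 higher and 1 lower, where the shares of all transcripts were 14.3% and 3.12%. Both KDM5_KD libraries lay above NC for 12 and below for 8, against 35.1% and 15.6% of all transcripts, and the median log2 fold change was 0.02. RPAP2, a Pol II assembly factor and phosphatase, was at 0.623 and 0.729 FPKM in NC and 1.86 and 2.42 FPKM in KDM5_KD (log2 fold change 0.90 with an SE of 0.21, adjusted p = 0.139 by limma). EAF2, a partner of ELL, was at 2.31 and 1.77 against 2.88 and 3.88 FPKM (log2 fold change 0.52, adjusted p = 0.312 by limma), and differed by 0.22 under quantile normalization. PAF1 was at 159 and 77.5 against 199 and 173 FPKM, and its difference of 0.73 (SE of 0.32, adjusted p = 0.314 by limma) rested on NC replicate 2. It was 1.25 without NC replicate 1 (limma adjusted p of 0.0166) and 0.22 without NC replicate 2. MAF1, the repressor of Pol III, was named after its values were seen as the 1 gene with the lower unadjusted p, at 144 and 121 against 105 and 96.6 FPKM (log2 fold change -0.38 with an SE of 0.13, adjusted p = 0.229 by limma).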

How the data were processed

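The authors deposited FPKM (fragments per kilobase of transcript scaled to the library's mapped fragments) for RefSeq transcript accessions in 4 libraries; the unit is named in the deposited table's name. Per the submitters' processing notes, Trimmomatic, HISAT2, featureCounts and Cufflinks were used, with no role or version; the genome build is not given in the sources used here. Read depth is unknown, so no counting intervals are given. Symbols came from a RefSeq gene table (ARS-UCD2.0), which matched 14295 of 14517 accessions. No sequences or coordinates were used. A member that the naming rule picks is not reported here, though it is in the counts.

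Groups came from sample titles. With limma 3.58.1 (R 4.3.3), lmFit and eBayes with a trend were run on log2(FPKM + 1) of the 8970 transcripts with a mean of at least 1 FPKM, without covariates, and p-values were adjusted by Benjamini-Hochberg over all 8970. Fold changes are on this scale, which understates those of low transcripts. The fit was checked on simulated data. Python 3.11.15 and matplotlib 3.10.9 made tables and plots. The alternatives changed the pseudocount to 0.1, dropped the filter or set it at 5 FPKM, or used median-ratio or quantile scaling, other variance models, a replicate block, rows summed by gene, no microRNA rows, or 1 library fewer.

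Named were members with a set role (such as catalytic subunits), the 2 largest differences each way and the highest and lowest level per complex, members past an adjusted p of 0.05, and those with groups not overlapping and a log2 fold change of at least 0.5; other members with groups not overlapping, and some that overlapped, were named after their values were seen. Members and lists were chosen with earlier results of these data known.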

Additional observations from a re-analysis of the deposited data

How the results depend on the processing

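With 0 members called, the count stayed at 0 under all 14 alternatives, and the lowest adjusted p of any member in them was 0.119. The main fit called 0.279% of all transcripts, and most alternatives called few. A count of 0 therefore says little about the members. The number of transcripts called was 25, and it was 12 with eBayes without a trend, 12 with the replicate number as a block, 3 without a filter and 46 with robust eBayes. Leaving out 1 library at a time gave 6 to 340, the highest without NC replicate 1; there the lone library of a group is assumed to vary like the others. The replicate block is given as an alternative because the titles share replicate numbers, whose deviations correlated at 0.229 across transcripts; it changed no call of a member.

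Members not overlapping numbered 20 above and 19 below, beside 35.1% and 15.6% of all transcripts. After median-ratio scaling they numbered 8 and 44, beside 25.9% and 25.4%. After quantile normalization they numbered 11 and 32, beside 20.7% and 28.3%. With 1 library left out the counts were 29 to 41 above and 33 to 50 below, where fewer libraries have to be separated. In these runs 44.96% to 50.02% of all transcripts lay above and 25.43% to 28.91% below. The median log2 fold change of all members was -0.14 after median-ratio scaling, -0.11 after quantile normalization and between -0.050 and 0.028 with 1 library left out. Median-ratio scaling gave medians of -0.17 for Pol I, -0.13 for Pol II, -0.074 for TFIID, -0.13 for GTF2, -0.17 for Mediator and -0.045 for the elongation set. Quantile normalization gave -0.085 for TFIID, -0.086 for GTF2, -0.14 for Mediator and -0.11 for the elongation set. A filter at 5 FPKM gave -0.018 for TFIID and -0.059 for the elongation set. Leaving out 1 library gave medians from -0.15 to 0.063 for Pol I, -0.080 to 0.071 for Pol II, -0.057 to 0.23 for SL1, -0.049 to 0.033 for TFIID, -0.063 to 0.11 for GTF2, -0.097 to -0.016 for Mediator and -0.053 to 0.11 for the elongation set.

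Of 790 values of 57 named transcripts under the alternatives, 768 kept their direction and their side of the threshold, 21 of 12 transcripts changed sign and 1, PAF1 without NC replicate 1, passed the threshold. Median-ratio scaling gave a log2 fold change of -0.026 for POLR1E, -0.038 for POLR2D, -0.046 for POLR2I, -0.077 for POLR3A, -0.0053 for POLR3C and -0.045 for SUPT7L. Quantile normalization gave -0.0096 for GTF3A, -0.030 for POLR3A, -0.13 for POLR3C and -0.26 for SUPT7L. With 1 library left out it ran from -0.10 to 0.49 for GTF2A1L, -0.0053 to 0.47 for GTF3A, -0.48 to 0.064 for POLR2K (NM_001037623), -0.070 to 0.13 for POLR3A, -0.33 to 0.51 for POLR3C, -0.27 to 0.029 for TAF11, -0.015 to 0.45 for TAF1A and -0.00072 to 0.31 for TAF1D. All of these transcripts were uncalled, and the cause of the changes was not tested. Depth is unknown, so its effect on low members such as TCEAL1 was not tested.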

Other observations

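Ratios of paralogs or partner subunits within a library do not depend on a factor that scales the whole library. The ratio of POLR3G to POLR3GL was 166 and 111 in NC and 39.3 and 39.4 in KDM5_KD, with POLR3GL below 1 FPKM throughout. The ratio of TAF9 to TAF9B was 41.2 and 56.3 in NC and 32.9 and 23.2 in KDM5_KD. TAF9B itself differed by 0.41, or by 0.07 under quantile normalization. NELFA was 1.003 and 0.713 times NELFE in NC and 0.632 and 0.571 times in KDM5_KD. The ratio of POLR2A to POLR2B overlapped, at 1.52 and 1.67 against 1.36 and 1.64, as did that of TBPL1 to TBP, at 3.93 and 2.64 against 2.64 and 2.85.

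SSU72, a phosphatase of the Pol II tail in the wider list, was at 45.6 and 14.1 FPKM in NC and 194 and 14.7 FPKM in KDM5_KD, so that 1 library of each group was high. It was singled out after its values were seen.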
